A study of Mus musculus with 9 samples.

Results

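Regulators of the small GTPases RhoA, Rac and Cdc42 were followed in type 2 conventional dendritic cells (cDC2s) of the mouse spleen, across wild-type (WT), CD97-deficient and Gα13-deficient libraries. The members were all genes of the deposited count table whose symbol starts with Arhgap (GTPase-activating proteins, RhoGAPs), Arhgef (guanine nucleotide exchange factors, RhoGEFs), Arhgdi (GDP-dissociation inhibitors, RhoGDIs) or Dock (dedicator of cytokinesis proteins). They also had to reach at least 1 CPM (counts scaled to a common library total) in 3 or more of the 9 libraries. Of 60 such symbols, 3 (Arhgef1, Arhgef11 and Arhgef12) were left out by name and 4 lay below the level threshold. The remaining 53 members, of 14209 genes in the table, were 26 RhoGAPs, 14 RhoGEFs, 2 RhoGDIs and 11 DOCK genes. Just inside the threshold were Dock3, with 1.04 CPM of the library total in its third-highest library, and Arhgef5 with 1.23 CPM. Just outside it were Arhgef25 with 0.953 CPM and Arhgap24 with 0.792 CPM in the third-highest library, followed by Arhgap20 and Arhgap44.

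Each of the 3 groups had 3 libraries from C57BL/6 mice. The WT group carried no named allele. The CD97-deficient group is labelled as a knockout of CD97, the adhesion G protein-coupled receptor that the gene Adgre5 encodes and that the count table lists as Cd97. In the Gα13-deficient group the CD11c promoter drives Cre in mice with a floxed Gna13 gene. That promoter is active in dendritic cells and also in some macrophages and other leukocytes, so the deletion need not be limited to cDC2s. The genotype label of this group also names Adgre5-/-, while the series describes CD97 and Gα13 deficiency as separate groups; which holds could not be settled from the labels, and the Cd97 values are given with the library checks. Age, the number of mice and any pooling of mice are not given in the sources used here. Whether the libraries of 1 group stem from different mice is not stated either. The p-values therefore rest on library-to-library spread alone, part of which may be technical.

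GTPases such as RhoA, Rac and Cdc42 switch between a GTP-bound form that drives actin assembly and contraction and a GDP-bound form that does not. RhoGEFs and DOCK proteins load GTP, RhoGAPs speed its hydrolysis, and RhoGDIs hold the GDP-bound GTPase in the cytosol. Gα13 is known to activate RhoA through RhoGEFs that carry an RGS homology domain, which are the genes left out by name. In dendritic cells the same switches govern migration, shape and attachment, and in dividing cells RhoA drives the contractile ring of cytokinesis.

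Library totals ran from 5679946 to 13904646 counts, so that 3 counts corresponded to 0.216 to 0.528 CPM. The labelled cell type was checked with 12 cDC2 markers such as Itgax, Sirpa and H2-Ab1. They summed to 9920 to 11500 CPM in WT, 9070 to 9530 CPM in CD97-deficient and 9570 to 10800 CPM in Gα13-deficient libraries. The CD97-deficient sums thus lay below the WT range. Single markers moved in both directions. Itgax had 1730 to 1930 CPM in Gα13-deficient against 1360 to 1580 CPM in WT libraries. Cd4 had 360 to 424 CPM in CD97-deficient against 530 to 823 CPM in WT libraries. Splenic macrophage markers summed to 440 to 1420 CPM in WT, 488 to 1800 CPM in CD97-deficient and 608 to 970 CPM in Gα13-deficient libraries. T cell markers summed to 21.9 to 39.2 CPM, most of it Cd5 (22.2 CPM on average). Only 1 of 6 neutrophil markers had a row (at most 0.695 CPM) and 2 of 7 erythroid markers (4.34 to 12.4 CPM). Other lists were higher: cDC1 1650 to 1920 CPM, mostly Wdfy4, B cells 322 to 489 CPM, mostly Cd22, and monocytes 173 to 386 CPM, mostly Csf1r. Plasmacytoid dendritic cell markers summed to 241 to 338 CPM in WT, 321 to 363 CPM in CD97-deficient and 362 to 469 CPM in Gα13-deficient libraries. Gna13 fell in the Gα13-deficient libraries, which held 113.5, 96.7 and 91.7 CPM against 226, 228 and 186 CPM in WT (log2 fold change -1.09 ± 0.11 SE, edgeR quasi-likelihood adjusted p = 6.84e-05). Cd97 had 725, 839 and 437 CPM in the CD97-deficient against 1505, 899 and 1298 CPM in the WT libraries, and the difference was not called (-0.89 ± 0.28 SE, edgeR adjusted p = 0.105). The Gα13-deficient libraries had 1144, 1223 and 1015 CPM of Cd97, within the WT range. By Xist and Y-linked genes, 1 of 3 WT, 3 of 3 CD97-deficient and 1 of 3 Gα13-deficient libraries had a female pattern, so sex and genotype overlap in the comparison of CD97-deficient with WT libraries.

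The levels of the members in WT cDC2s are given per length, as CPM per kilobase (kb) of annotated exons, so that genes can be compared with each other. They spanned from 0.0363 CPM per kb for Arhgef17 to 305 CPM per kb for Arhgdia. The RhoGDIs stood at the top: Arhgdia, the broadly expressed inhibitor, had 305 ± 32.9 (SD, n = 3) and Arhgdib, the inhibitor typical of blood cells, 296 ± 11.0 CPM per kb. Their ranges overlapped, and they ranked 46 and 50 among 14015 genes with a known exon length.

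Among the DOCK genes, Dock10, an exchange factor for Cdc42 and Rac, led with 160 ± 12.7 CPM per kb, followed by the Rac exchange factor Dock5 with 88.6 ± 28.1. Dock8, a Cdc42 exchange factor that dendritic cells need for migration through tissue, had 62.9 ± 5.21 CPM per kb, and Dock11, another Cdc42 exchange factor, 51.2 ± 8.12. Dock2, the main Rac exchange factor of lymphocytes, followed with 30.3 ± 1.34 CPM per kb. The ranges of Dock8 and Dock11 overlapped, while Dock10, Dock5 and Dock2 each stood apart from their neighbours in this order. Dock4 had 6.32 ± 1.25 CPM per kb, Dock1, Dock6 and Dock9 lay between 0.871 and 1.33 CPM per kb, and Dock3 had 0.0920 CPM per kb. Dock5 varied most between the WT libraries among the 5 highest: it had 1469 CPM in WT replicate 1 and 933 and 832 CPM in the other two.

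Only 3 of the 14 RhoGEFs reached 10 CPM per kb. Arhgef6, which encodes the Rac and Cdc42 exchange factor alpha-PIX, had 53.5 ± 1.16 CPM per kb. Arhgef2, whose product GEF-H1 is held on microtubules and acts on RhoA, had 28.5 ± 0.311, and Arhgef3, a RhoA and RhoB exchange factor, had 10.5 ± 0.766. These 3 did not overlap with each other or with Arhgef18, the next in order (6.52 ± 1.19 CPM per kb). The lower 7 lay under 1 CPM per kb, among them Arhgef10l with 0.315 ± 0.111.

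Among the RhoGAPs 13 of 26 reached 10 CPM per kb. Arhgap30 (100.4 ± 4.50 CPM per kb) and the leukocyte gene Arhgap9 (93.6 ± 7.97) came first, with overlapping ranges. Arhgap11a, a RhoA GAP that dividing cells make, came next with 47.5 ± 4.05 CPM per kb and overlapped with Arhgap25, a Rac GAP of phagocytes (44.2 ± 9.55). That level of Arhgap11a exceeded the WT level per kb of 29 of the 30 genes of a cell division list, whose median was 11.6 CPM per kb; Mki67, with 91.1 CPM per kb, was higher. Arhgap19, another RhoA GAP of cytokinesis, had 11.0 ± 4.70 CPM per kb and exceeded 14 of the 30. Below 1 CPM per kb were Arhgap29, Arhgap10 and Arhgap23, with 0.165 to 0.231 CPM per kb. Along the whole RhoGAP order, the ranges overlapped in 17 of 25 neighbouring pairs.

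**Figure D1:**
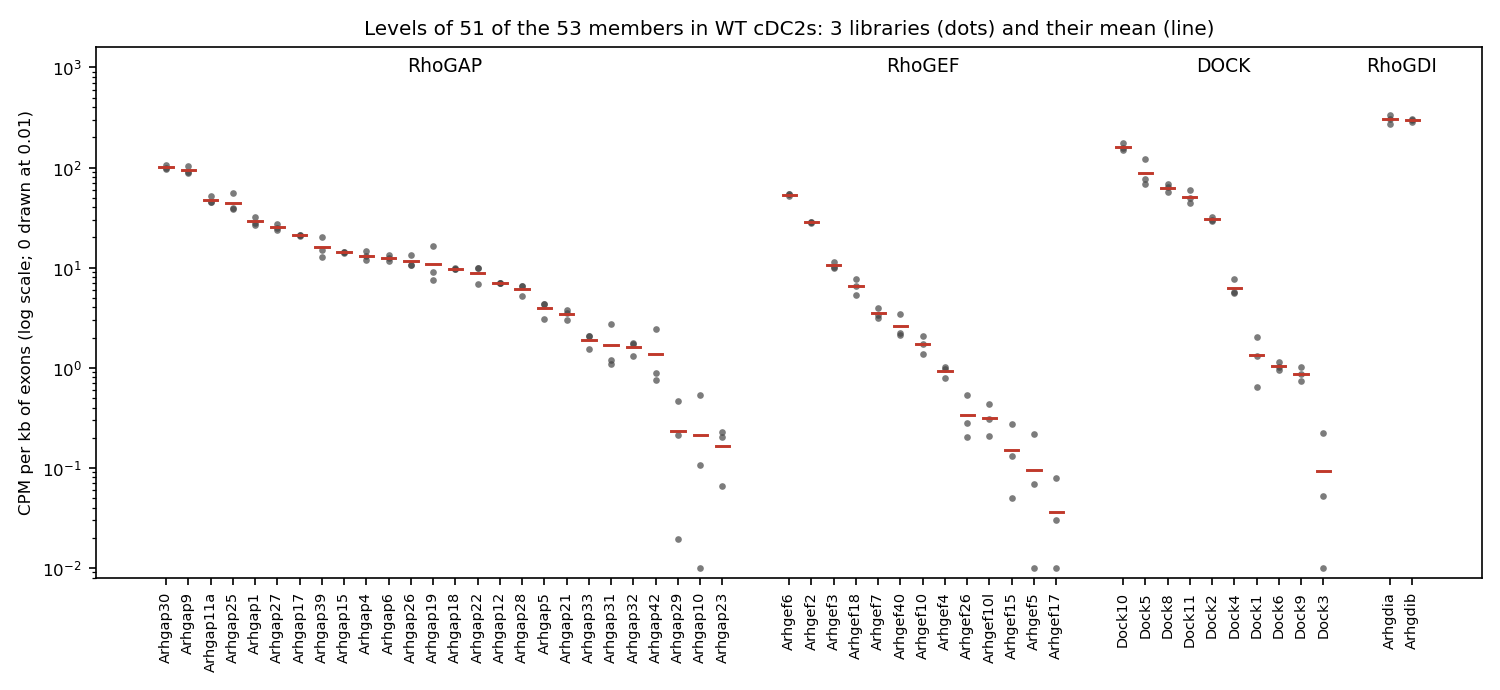
WT level of 51 of the 53 members in CPM per kb of exons (log axis; 0 is drawn at 0.01), ordered within RhoGAPs, RhoGEFs, DOCK genes and RhoGDIs. Dots are the 3 WT libraries and red lines their means. Both RhoGDIs lie near 300 CPM per kb, above Dock10 at 160 CPM per kb.

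The comparison of CD97-deficient with WT cDC2s asked which genes differ in cells labelled as lacking the receptor. The labels do not name the deleted stretch of Cd97, so its RNA level is an incomplete check of them. Of the 52 members tested (Dock3 did not pass the expression filter), 4 were called at an adjusted p under 0.05, which is 7.69% beside 8.53% of the 12043 genes tested. All 4 were higher, Arhgap11a, Arhgap33, Arhgap21 and Arhgdib, against 4.84% of all genes, and 0 were lower, against 3.69%. By an unadjusted p under 0.05, 16 members (30.8%) passed, against 24.5% of all genes. DESeq2 called 7 of the 48 members to which it gave an adjusted p (14.6%), adding Arhgap19, Arhgap22 and Dock5, beside 11.0% of 11727 genes. In 15 members (28.8%) the 3 CD97-deficient and 3 WT libraries did not overlap, against 28.2% of all genes. These shares lay near the background of all genes. Once sex pattern was added as a model term, edgeR called Arhgap11a alone of the members (1 of 52, or 1.92%), beside 222 genes in all (1.84%). The median log2 fold change was -0.05 over the 52 members tested and -0.003 over all genes tested.

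The comparison of Gα13-deficient with WT cDC2s asked the same of the G protein subunit. It called 8 of 52 members (15.4%) beside 11.0% of all genes tested. Arhgap11a, Arhgap19, Arhgap21, Arhgap33, Arhgdib and Arhgef10l were higher (11.5%, against 5.74% of all genes), and Arhgap28 and Arhgap6 were lower (3.85%, against 5.24%). With an unadjusted p under 0.05 there were 17 members (32.7%) against 25.8% of all genes, and in 18 members (34.6%) the libraries of both groups did not overlap, against 29.6%. The members' median log2 fold change was -0.05, beside -0.008 for all genes tested. Between the 2 male-pattern libraries of each group, 3 of 50 members were called (6.0%; Arhgap11a, Arhgap19 and Arhgap28), beside 611 genes in all (5.12%). By family, 6 of 26 RhoGAPs, 1 of 14 RhoGEFs, 1 of 2 RhoGDIs and 0 of 10 DOCK genes were called. Both knockout groups were set against the same 3 WT libraries, so the 2 comparisons are not independent, and each gene's values are given side by side.

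**Figure D2:**
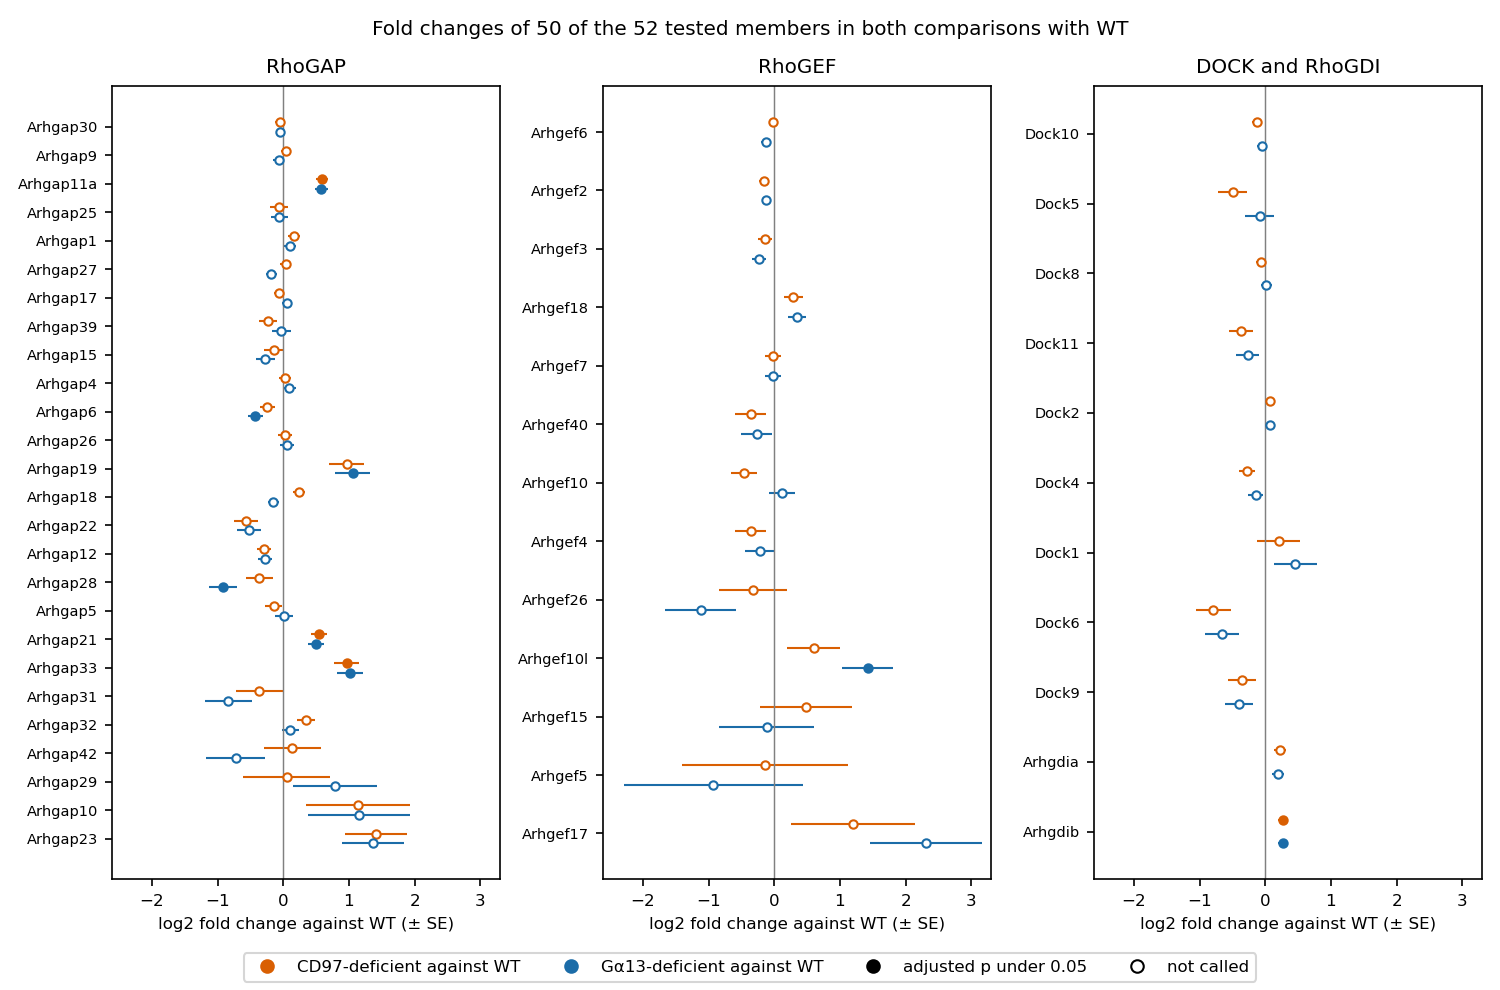
log2 fold change (± SE) of 50 of the 52 tested members against WT, for CD97-deficient (orange) and Gα13-deficient (blue) libraries, in 3 panels by family and in the order of the WT level per kb. Filled points passed an adjusted p under 0.05: 4 members in the first comparison and 8 in the second, with no DOCK gene among them.

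Arhgap11a had 242, 278 and 239 CPM in the WT libraries, 371, 372 and 399 CPM in the CD97-deficient and 333, 402 and 401 CPM in the Gα13-deficient libraries. Every knockout library lay above every WT library. The rise was 1.5-fold in each comparison, with a log2 fold change of 0.59 ± 0.09 SE (edgeR quasi-likelihood adjusted p = 0.00159) for CD97-deficient and 0.58 ± 0.09 SE (adjusted p = 0.00107) for Gα13-deficient libraries. Arhgap11a stayed called when any 1 of the 9 libraries was left out, in both comparisons.

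Arhgap19 had 45.9, 83.4 and 38.7 CPM in WT, 117, 95.6 and 115 CPM in the CD97-deficient and 99.9, 132.5 and 118 CPM in the Gα13-deficient libraries. WT replicate 2 stood apart from the other WT libraries, and it still lay below every knockout library. The Gα13-deficient libraries were called, 2.08-fold higher than WT (log2 fold change 1.05 ± 0.27 SE, edgeR adjusted p = 0.0452), but the call moved with the replicate number as a block. Over all 9 libraries the blocked edgeR adjusted p was 0.0557; in WT and Gα13-deficient libraries alone it was 0.00368 (log2 fold change 1.12), against 0.094 for the same 2 groups unblocked. The CD97-deficient libraries were not called (0.96 ± 0.27 SE, edgeR adjusted p = 0.0697). DESeq2 called this difference (adjusted p = 0.000298), as did edgeR with the macrophage level as a model term (0.80, adjusted p = 0.00508). The log2 fold change was 0.61 with sex pattern as a model term (edgeR adjusted p = 0.113) and 0.40 in the female-pattern libraries alone, with 1 WT library. The call depended on single libraries: without WT replicate 2, edgeR gave log2 fold changes of 1.37 (adjusted p = 5.13e-05) for CD97-deficient and 1.46 (adjusted p = 2.06e-05) for Gα13-deficient libraries, and the Gα13 call was lost when any other 1 library was left out.

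The promoters of these 2 cytokinesis genes are shown because both rose in the Gα13-deficient libraries, as cell division genes did. The window at 1 annotated start of Arhgap21, which also rose, is set beside them. All 3 windows run from 250 bases before to 50 bases after the annotated start. They are printed 5′ to 3′ in the direction of transcription, from RefSeq on GRCm38.p6. All 3 genes are on the minus strand, at chr2:113848612-113848911, chr19:41802035-41802334 and chr2:20967672-20967971. Capitals mark matches, on either strand, to TTTGAA (the core of the cell cycle homology region), CCAAT (the box bound by NF-Y) and 3 forms of the E2F site, the form TTTCGCG, the form TTTGGCG and the form TTTCCCG.
Arhgap11a: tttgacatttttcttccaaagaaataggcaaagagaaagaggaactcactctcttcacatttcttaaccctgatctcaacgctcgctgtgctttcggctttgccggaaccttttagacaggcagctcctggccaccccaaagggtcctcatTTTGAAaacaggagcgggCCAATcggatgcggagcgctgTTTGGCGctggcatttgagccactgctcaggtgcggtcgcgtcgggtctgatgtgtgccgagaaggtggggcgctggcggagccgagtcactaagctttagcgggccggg
Arhgap19: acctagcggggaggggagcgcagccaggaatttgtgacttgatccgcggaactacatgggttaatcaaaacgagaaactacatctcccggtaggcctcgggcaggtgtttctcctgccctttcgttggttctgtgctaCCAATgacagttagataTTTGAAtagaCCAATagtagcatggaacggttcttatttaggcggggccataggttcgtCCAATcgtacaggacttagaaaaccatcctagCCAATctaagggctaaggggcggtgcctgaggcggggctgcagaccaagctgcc
Arhgap21: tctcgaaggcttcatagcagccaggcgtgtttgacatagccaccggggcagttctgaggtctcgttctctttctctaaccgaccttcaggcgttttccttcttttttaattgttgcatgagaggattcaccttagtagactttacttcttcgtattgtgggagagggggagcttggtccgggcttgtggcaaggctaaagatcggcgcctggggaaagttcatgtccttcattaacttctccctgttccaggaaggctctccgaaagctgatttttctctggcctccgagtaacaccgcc
In the Arhgap11a window TTTGAA lies at position -99 from the start, CCAAT at -81 and TTTGGCG at -60. In the Arhgap19 window TTTGAA lies at -95, between CCAAT boxes at -112 and -85, with others at -36 and -4. The Arhgap21 window holds none of these letters. It lies inside the gene, which GENCODE M21 extends to position 20968881, so the stretch before that upstream end was not searched. Of 32851 promoters of this length, 17.9% hold TTTGAA on either strand, 37.4% CCAAT, 1.56% TTTGGCG, 0.849% TTTCGCG and 3.39% TTTCCCG. Among 67 windows of the 39 members found in the table, the shares were 10.4%, 28.4%, 2.99%, 0% and 2.99%. TTTGGCG and the other E2F forms do not overlap with the other motifs in these windows. A relaxed form of the SRF site (CArG box) is found in 73.3% of all promoters and 82.1% of the member windows. Other called members held some of these letters too: 1 Arhgdib window held TTTGAA, at position 42, and windows of Arhgap6 and Arhgef10l held CCAAT on 1 of the strands. The 13 windows of called members came from 7 of the 8, as Arhgap33 had none. Of these windows 3 held TTTGAA and 5 held CCAAT. The Arhgef10l windows overlap and hold the same CCAAT. A match describes letters and shows no binding.

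Arhgap33, a sorting nexin with a RhoGAP domain, had 8.29, 11 and 11.03 CPM in WT, 19.98, 19.8 and 19.2 CPM in the CD97-deficient and 15.8, 24.8 and 20.8 CPM in the Gα13-deficient libraries. The knockout groups lay above all WT libraries. It rose 1.95-fold (log2 fold change 0.97 ± 0.19 SE, edgeR adjusted p = 0.00713) in the CD97-deficient and 2.02-fold (1.02 ± 0.19 SE, edgeR adjusted p = 0.00354) in the Gα13-deficient libraries. Both calls held when any 1 library was left out. With the sex pattern in the model, the CD97-deficient value was 0.75 and no longer called (edgeR adjusted p = 0.112). In the male-pattern libraries alone the Gα13-deficient value was 0.94 and not called (edgeR adjusted p = 0.0674).

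Arhgap21, a Golgi-associated GAP for Cdc42, had 32.8, 35.3 and 27.5 CPM in WT, 43.7, 46.4 and 50.01 CPM in the CD97-deficient and 44.1, 48.5 and 42.9 CPM in the Gα13-deficient libraries. Here too no knockout library reached down into the WT range. The rises were 1.46-fold (log2 fold change 0.55 ± 0.12 SE, edgeR adjusted p = 0.0123) and 1.41-fold (0.50 ± 0.12 SE, edgeR adjusted p = 0.0159). The first call was lost with the sex pattern in the model (edgeR adjusted p = 0.163) and without CD97-deficient replicate 3 (edgeR adjusted p = 0.0716). The second was lost without 2 of the 9 libraries in turn, at most with an edgeR adjusted p of 0.0736 without Gα13-deficient replicate 2. It was also lost in the male-pattern libraries alone (edgeR adjusted p = 0.126). The female-pattern libraries, 1 in each of these 2 groups, gave a log2 fold change of 0.46.

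Arhgap28, a RhoA GAP, moved the other way. It had 27.9, 35.0 and 35.5 CPM in WT and 17.1, 21.9 and 13.6 CPM in the Gα13-deficient libraries. All 3 Gα13-deficient values lay below the WT range, at 0.528 of the WT level (log2 fold change -0.92 ± 0.21 SE, edgeR adjusted p = 0.0121), and the call held without any 1 of the 9 libraries. It held narrowly without Gα13-deficient replicate 3 (edgeR adjusted p = 0.0486). Of 12 other settings 11 kept the call, and the log2 fold changes over the 12 ran from -1.04 to -0.672. The CD97-deficient libraries, with 22.8, 20.1 and 33.1 CPM, overlapped with both other groups and were not called against WT (-0.36 ± 0.20 SE, edgeR adjusted p = 0.297).

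Arhgap6, an X-linked RhoA GAP, had 150, 141 and 163 CPM in WT, 130, 146 and 108 CPM in the CD97-deficient and 102, 120 and 116 CPM in the Gα13-deficient libraries. The Gα13-deficient libraries lay below all WT libraries and the CD97-deficient ones did not. Arhgap6 fell to 0.746 of the WT level in the Gα13-deficient libraries (log2 fold change -0.42 ± 0.11 SE, edgeR adjusted p = 0.0237), against -0.24 ± 0.11 SE (adjusted p = 0.194) in the CD97-deficient ones. The Gα13 call was lost without each of 3 of the 9 libraries, with an edgeR adjusted p of up to 0.0956 without Gα13-deficient replicate 1. Its exons share 11.0% of their length with Hccs on the opposite strand, and no source used here says whether reads were counted by strand. Hccs itself was not called in the Gα13-deficient libraries (log2 fold change 0.21 ± 0.15 SE, edgeR adjusted p = 0.403). Between the 2 male-pattern libraries of each group, Arhgap6 had 150 and 163 CPM in WT and 102 and 116 CPM in the Gα13-deficient group, and the difference was not called there (-0.52, edgeR adjusted p = 0.0582). The 1 female-pattern library had 141 CPM in WT and 120 CPM in the Gα13-deficient group (log2 fold change -0.22, from the fit to female-pattern libraries).

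**Figure D3:**
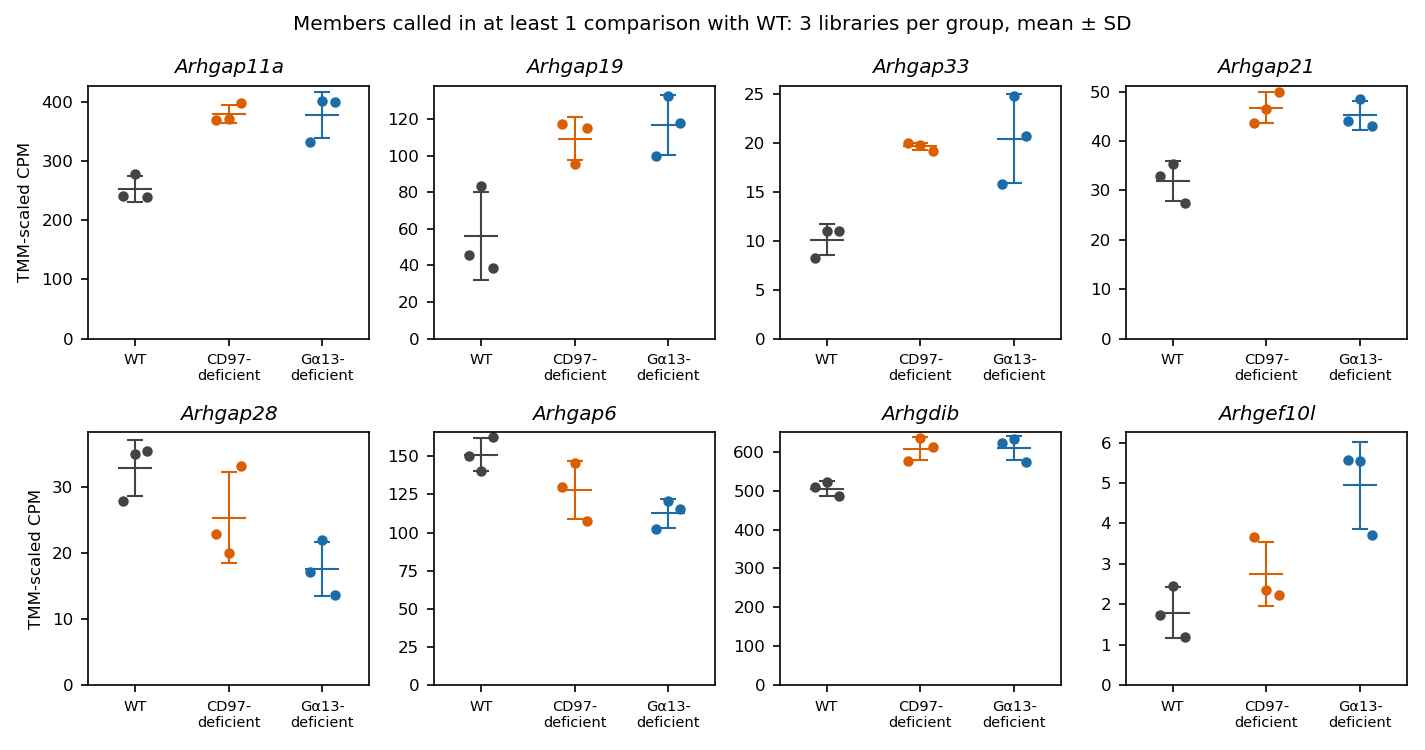
TMM-scaled CPM of the 8 members called in at least 1 comparison with WT, 1 panel a gene, each axis starting at 0. Dots are the 3 libraries of each group and bars the mean ± SD. Arhgap11a, Arhgap19, Arhgap33, Arhgap21 and Arhgdib lie higher in both knockout groups than in all WT libraries, and Arhgap28 and Arhgap6 have their lowest means in the Gα13-deficient group.

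The other 20 RhoGAPs were not called in either comparison by edgeR with all 9 libraries and 3 group means. Arhgap30 had 834.5 to 907 CPM in WT, 809 to 874.5 CPM in the CD97-deficient and 831 to 843 CPM in the Gα13-deficient libraries, with log2 fold changes of -0.05 ± 0.07 SE and -0.04 ± 0.07 SE. Arhgap9 had log2 fold changes of 0.04 ± 0.08 SE and -0.07 ± 0.08 SE. For both leading RhoGAPs the knockout libraries ran through the WT range.

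Some of the uncalled RhoGAPs had groups that stood apart or nearly so. Arhgap12 had 56.7, 56.8 and 56.5 CPM in WT, 52.0, 41.3 and 44.6 CPM in the CD97-deficient and 47.2, 46.5 and 46.0 CPM in the Gα13-deficient libraries (-0.30 ± 0.11 SE, edgeR adjusted p = 0.0956; -0.28 ± 0.11 SE, adjusted p = 0.104). Arhgap22, a GAP for Rac, had 38.5, 38.4 and 26.5 CPM in WT, 22.0, 18.3 and 29.6 CPM in the CD97-deficient and 23.3, 25.0 and 24.1 CPM in the Gα13-deficient libraries (-0.56 ± 0.18 SE, edgeR adjusted p = 0.0687; -0.52 ± 0.18 SE, adjusted p = 0.0799). WT replicate 3 of Arhgap22 lay below CD97-deficient replicate 3, so that these groups overlapped. Arhgap22 was called lower in the CD97-deficient libraries by DESeq2 (-0.57, adjusted p = 0.046). With the macrophage level as a model term, edgeR called it in both comparisons (-0.70, adjusted p = 0.0347; -0.56, adjusted p = 0.0428). Without WT replicate 3 it was also called in both (edgeR adjusted p = 0.0258 and 0.0308), and without CD97-deficient replicate 3 in the first (edgeR adjusted p = 0.0398). Of the exon length of Arhgap22, 36.9% overlaps with an antisense gene. Arhgap23, the lowest RhoGAP, had 0.436, 1.49 and 1.36 CPM in WT, 3.43, 2.49 and 2.57 CPM in the CD97-deficient and 3.18, 2.95 and 2.21 CPM in the Gα13-deficient libraries (1.41 ± 0.48 SE, edgeR adjusted p = 0.0803; 1.37 ± 0.47 SE, adjusted p = 0.0788). Both knockout groups of Arhgap23 lay above WT, at levels of a few CPM. These 3 genes were picked out after their values were seen.

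Of the RhoGDIs, Arhgdib had 509, 522 and 485 CPM in WT, 576, 636 and 613 CPM in the CD97-deficient and 622, 634 and 575 CPM in the Gα13-deficient libraries. All 6 knockout libraries were above the WT range, by a small step. The rises were 1.20-fold (log2 fold change 0.27 ± 0.07 SE, edgeR adjusted p = 0.0396) and 1.21-fold (0.27 ± 0.07 SE, edgeR adjusted p = 0.0304). These calls were fragile: leaving out 1 library kept 2 of 9 calls in the CD97-deficient and 6 of 9 in the Gα13-deficient comparison, with edgeR adjusted p up to 0.142 without CD97-deficient replicate 2 and 0.129 without Gα13-deficient replicate 2. With the replicate number as a block in the 2 groups, the Gα13 comparison gave an edgeR adjusted p of 0.0609. The other RhoGDI, Arhgdia, had 611, 695 and 759 CPM in WT, 766, 795 and 856 CPM in the CD97-deficient and 751, 854 and 763 CPM in the Gα13-deficient libraries. It was not called, with log2 fold changes of 0.23 ± 0.09 SE (edgeR adjusted p = 0.133) and 0.20 ± 0.09 SE (adjusted p = 0.182).

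The called RhoGEF, Arhgef10l, encodes a RhoA exchange factor and was scarce. It had 1.74, 2.44 and 1.19 CPM in WT, 3.66, 2.34 and 2.23 CPM in the CD97-deficient and 5.56, 5.56 and 3.71 CPM in the Gα13-deficient libraries. The Gα13-deficient libraries stood above all others and the CD97-deficient ones overlapped with WT. Its rise in the Gα13-deficient libraries was 2.68-fold (log2 fold change 1.42 ± 0.39 SE, edgeR adjusted p = 0.0281), and 5 of the 9 fits without 1 library kept the call, with an edgeR adjusted p of up to 0.0917 without Gα13-deficient replicate 2. Of 12 other settings 10 kept the call, and it was lost in the male-pattern libraries alone. In the CD97-deficient libraries the value was 0.60 ± 0.40 SE (edgeR adjusted p = 0.387).

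The abundant RhoGEFs and the DOCK genes were not called in either comparison by edgeR with all 9 libraries and 3 group means. Arhgef6 had 446 to 464 CPM in WT, 451 to 452 CPM in the CD97-deficient and 407 to 430 CPM in the Gα13-deficient libraries, with log2 fold changes of -0.02 ± 0.07 SE and -0.13 ± 0.07 SE. Arhgef2 had 277 to 284 CPM in WT, 245.5 to 262 CPM in the CD97-deficient and 254 to 267 CPM in the Gα13-deficient libraries (-0.16 ± 0.07 and -0.12 ± 0.07 SE). Each knockout range of Arhgef2 lay below the WT range, and the edgeR adjusted p were 0.189 and 0.322. Arhgef3 had log2 fold changes of -0.14 ± 0.11 SE and -0.23 ± 0.11 SE.

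Dock10 had 3187, 2743 and 2851 CPM in WT, 2717, 2726 and 2576 CPM in the CD97-deficient and 2811, 2817 and 2883 CPM in the Gα13-deficient libraries. The CD97-deficient libraries lay just below the WT range and the Gα13-deficient ones inside it, with log2 fold changes of -0.13 ± 0.08 SE (edgeR adjusted p = 0.312) and -0.05 ± 0.08 SE (adjusted p = 0.76). Dock5 had 890, 753 and 649 CPM in the CD97-deficient and 1121, 958 and 970 CPM in the Gα13-deficient libraries, against 832 to 1469 CPM in WT. Its values against WT were -0.50 ± 0.22 SE (edgeR adjusted p = 0.208) and -0.09 ± 0.22 SE (adjusted p = 0.849). The first was called by DESeq2 (-0.50, adjusted p = 0.0425) and by edgeR with the replicate number as a block over all 9 libraries (-0.47, adjusted p = 0.0156) or in the 2 groups alone (-0.47, adjusted p = 0.0217). Dock8 had 578 to 649 CPM in the CD97-deficient and 609 to 662.5 CPM in the Gα13-deficient libraries, around the WT values of 684, 637 and 580 CPM, with log2 fold changes of -0.07 and 0.02. Dock2 had log2 fold changes of 0.08 ± 0.08 and 0.07 ± 0.08 SE. Among the low DOCK genes, Dock6 had 9.92, 8.28 and 8.99 CPM in WT, 6.62, 3.66 and 5.36 CPM in the CD97-deficient and 4.54, 5.56 and 6.92 CPM in the Gα13-deficient libraries. Both knockout groups lay below WT, and neither was called (-0.79 ± 0.26 SE, edgeR adjusted p = 0.0789; -0.66 ± 0.26 SE, adjusted p = 0.119).

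Among the X-linked members Arhgap4, Arhgap6, Arhgef6 and Dock11, Arhgap6 was called. Dock11 had 553, 461 and 405 CPM in WT, 447, 334.5 and 315 CPM in the CD97-deficient and 357, 340 and 480.5 CPM in the Gα13-deficient libraries. The groups overlapped, with log2 fold changes of -0.37 ± 0.18 SE (edgeR adjusted p = 0.245) and -0.27 ± 0.18 SE (adjusted p = 0.392). Arhgap4, a RhoGAP of blood cells, had 95.7 to 118 CPM in WT and values of 0.03 ± 0.10 SE and 0.09 ± 0.10 SE. It shares 29.0% of its exon length with Avpr2 on the opposite strand, so its counts are uncertain. Within WT, the 1 female-pattern library had 141 CPM of Arhgap6, beside 150 and 163 CPM in the male-pattern libraries, and 461 CPM of Dock11, between their 405 and 553 CPM.

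Set against each other, the Gα13-deficient and CD97-deficient libraries gave 0 called members by edgeR, beside 0.0498% of all genes tested (6 genes, Gna13 among them). By an unadjusted p under 0.05 there were 5 members (9.62%), against 6.0% of all genes, and 13 members (25.0%) had groups that did not overlap, against 13.1%. DESeq2 called 1 of 48 members (2.08%, beside 0.469% of all genes), Arhgap18, a RhoA GAP, chosen here after its values were seen. Arhgap18 had 57.5, 56.6 and 59.8 CPM in the Gα13-deficient, 76.6, 75.5 and 76.2 CPM in the CD97-deficient and 64.2, 64.9 and 64.1 CPM in the WT libraries. The 3 groups did not overlap, and WT lay between the knockouts. The direct difference was -0.39 ± 0.09 SE on the log2 scale (unadjusted p = 0.00048, edgeR adjusted p = 0.206, DESeq2 adjusted p = 0.0387). Against WT it was 0.24 ± 0.09 SE (edgeR adjusted p = 0.105) for CD97-deficient and -0.15 ± 0.09 SE (adjusted p = 0.307) for Gα13-deficient libraries. Of the members called against WT, Arhgap28 differed by -0.56 ± 0.21 SE (edgeR adjusted p = 0.717) and Arhgef10l by 0.82 ± 0.37 SE (adjusted p = 0.806) between the knockouts, so a difference between the 2 genotypes was not shown for either.

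The other genes of the pathway came from lists of RhoA, Rac and Cdc42 family GTPases and of regulators with other names. Their counts stand beside the shares of all genes tested, of which 4.84% rose and 3.69% fell in the CD97-deficient and 5.74% rose and 5.24% fell in the Gα13-deficient libraries. Of 17 such GTPases tested, Rac2, the Rac of blood cells, was called in CD97-deficient libraries (log2 fold change 0.34 ± 0.09 SE, edgeR adjusted p = 0.0362; 0.29 in Gα13-deficient, adjusted p = 0.0545). Rhoa was called in Gα13-deficient libraries (0.32 ± 0.10 SE, edgeR adjusted p = 0.0454; 0.32 in CD97-deficient, adjusted p = 0.055). Both were higher, 1 in each comparison, and 0 were lower.

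Of 37 other RhoGEFs and DOCK partners, the CD97-deficient libraries had 1 that rose and 0 that fell, and the Gα13-deficient ones 4 that rose and 1 that fell. Ect2, the RhoA exchange factor of cytokinesis, had 29.0 to 36.0 CPM in WT, 52.4 to 60.4 CPM in the CD97-deficient and 57.5 to 70.2 CPM in the Gα13-deficient libraries. It rose in both (0.82 ± 0.12 SE, edgeR adjusted p = 0.00102; 1.005 ± 0.12 SE, adjusted p = 0.000172). Net1, a RhoA exchange factor (0.69 ± 0.15 SE), and Elmo2, a DOCK partner (0.31 ± 0.07), also rose, and Swap70 (-0.32 ± 0.10) fell, in the Gα13-deficient libraries.

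Of 22 other RhoGAPs, the CD97-deficient libraries had 3 that rose, the Gα13-deficient ones 4, and neither had any that fell. Racgap1, the partner of Ect2 at the spindle midzone, had 32.9 to 45.2 CPM in WT, 70.0 to 72.1 CPM in the CD97-deficient and 63.3 to 84.6 CPM in the Gα13-deficient libraries. Its log2 fold changes were 0.94 ± 0.14 SE (edgeR adjusted p = 0.001) and 1.02 ± 0.14 SE (adjusted p = 0.000347). Depdc1b, a gene of mitosis, rose by 1.38 ± 0.29 SE and 1.55 ± 0.29 SE, and Srgap3 by 0.29 ± 0.08 SE and 0.54 ± 0.08 SE. Depdc1a was called in Gα13-deficient libraries (1.06 ± 0.28 SE, edgeR adjusted p = 0.0265). No gene of these 3 lists was called between the knockouts.

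The level of dividing-cell RNA moved with these genes. Of the 30 cell division genes 29 were called higher in each comparison with WT, with median log2 fold changes of 0.96 and 1.05, and 0 between the knockouts. The mean of log2(CPM + 0.5) over the list was 5.63, 5.99 and 5.47 in WT, 6.72, 6.61 and 6.70 in the CD97-deficient and 6.56, 6.80 and 6.89 in the Gα13-deficient libraries. WT replicate 2, the highest WT library of this list, was also the highest WT library for Arhgap11a, Arhgap19, Arhgap21, Racgap1 and Ect2. It was also the 1 WT library with a female pattern and had the most macrophage RNA of the 3, with a summed marker level of 1420 CPM against 657 and 440 CPM. Arhgap33 was not highest there, with 11 CPM in WT replicate 2 and 11.03 CPM in WT replicate 3. The part of cell division in the results of Arhgap11a, Arhgap19, Arhgap21, Arhgap33, Racgap1, Ect2 and Depdc1b was not tested. Sex pattern and macrophage level were model terms in alternative fits, and their part was not tested beyond these. For CD97-deficient against WT, Arhgap11a gave log2 fold changes of 0.48 with sex pattern and 0.55 with macrophage level in the model. In bulk libraries more dividing cells and more RNA per cell cannot be told apart.

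**Figure D4:**
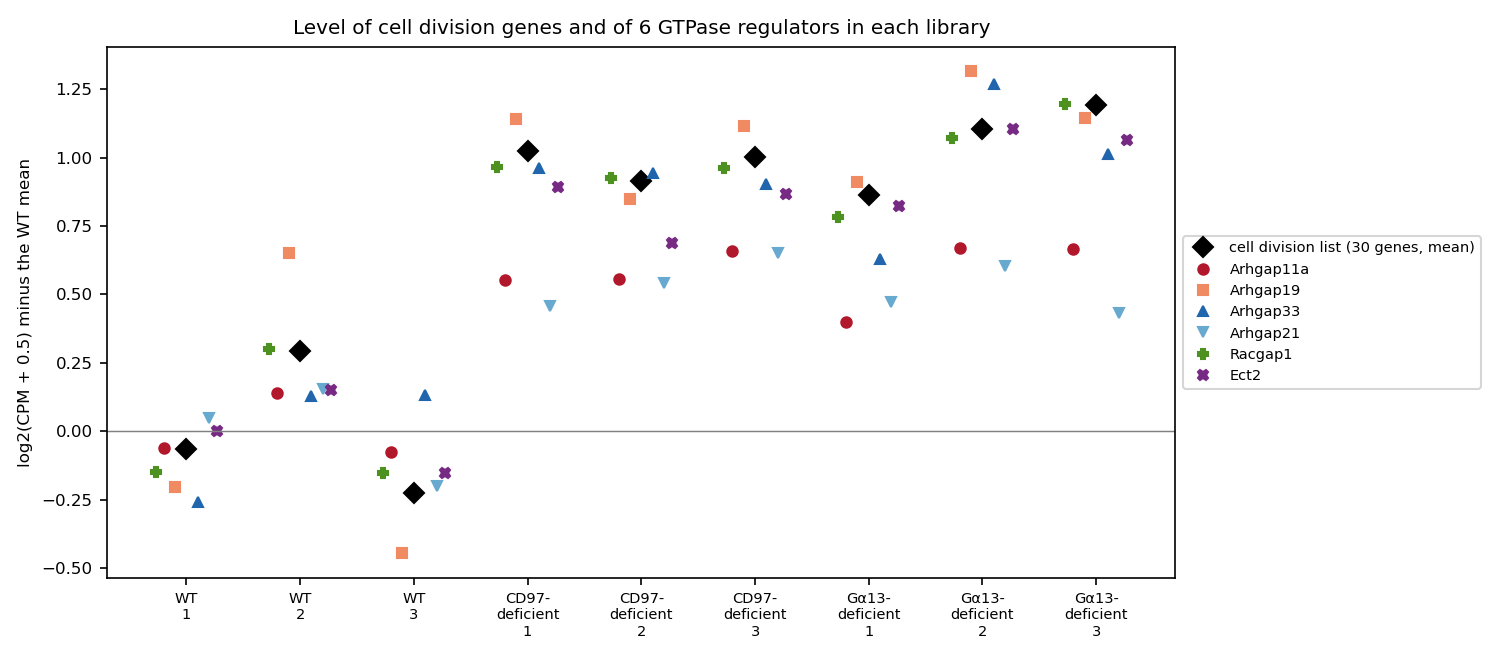
log2(CPM + 0.5) minus the mean of the 3 WT libraries, for each of the 9 libraries (horizontal axis): the mean over 30 cell division genes (black diamonds), 4 RhoGAP members, and Racgap1 and Ect2. All knockout libraries lie above 0 for all 7 measures, and Arhgap11a and Arhgap21 lie below the cell division mean in all 6 knockout libraries.

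**Figure D5:**
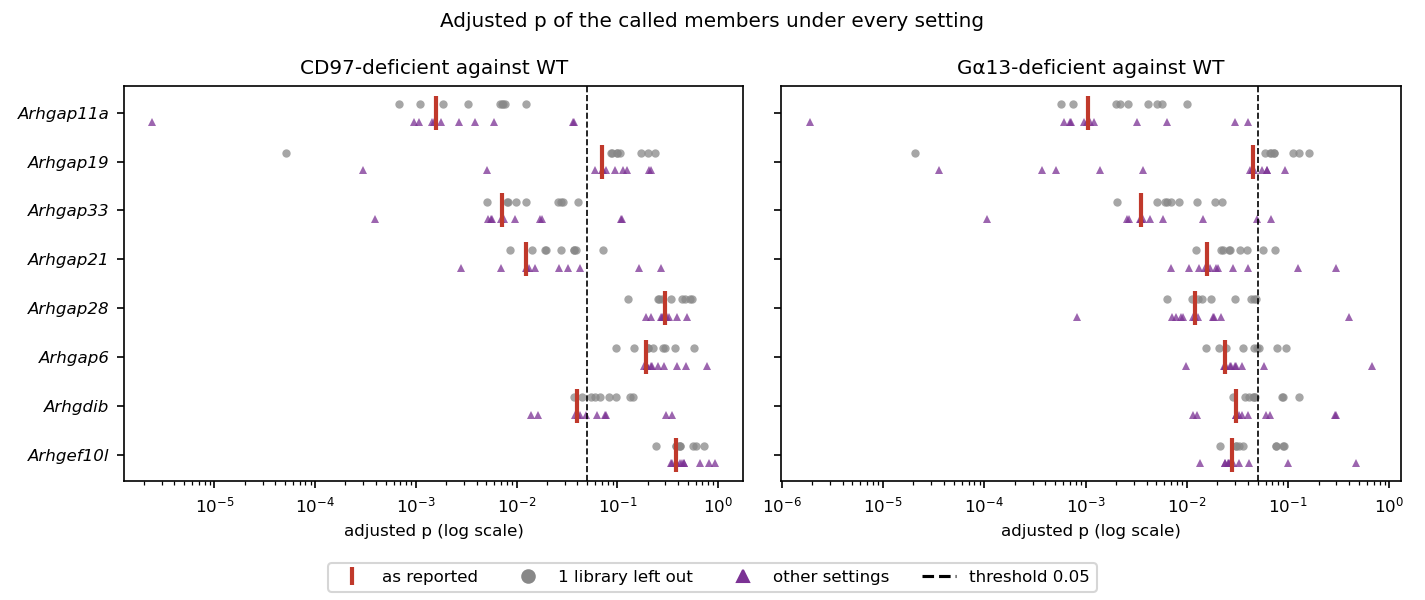
Adjusted p (log axis) of the 8 called members in both comparisons with WT. Red bars give the value as reported, grey dots the 9 fits that each leave out 1 library and purple triangles the other settings; the dashed line is 0.05. Arhgap11a stays left of the line under every setting in both panels, while Arhgap19, Arhgap21, Arhgap33 and Arhgdib each have points right of it in both.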

How the data were processed

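The values analysed are the counts per gene that the authors deposited as 1 table for 9 libraries. Per the submitters' processing notes the tools were STAR, HTSeq and DESeq2 and the build mm10; how each was set, the annotation and the strand setting are not given in the sources used here. Replicates were not pooled. The members and gene lists were chosen with earlier results of these data known. The named members are those called in any comparison, the 3 highest per length in each family, all RhoGDIs, X-linked members and those nearest the threshold. A few genes are counted but not reported here by name.

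Counts were tested with edgeR 4.0.16 (R 4.3.3): default expression filter (12043 of 14209 genes kept), TMM factors (0.951 to 1.04), 1 quasi-likelihood fit over all 9 libraries with 3 group means, and Benjamini-Hochberg adjustment over all genes tested, called at an adjusted p under 0.05. The code was tested on simulated data. The SE of an edgeR log2 fold change is its absolute value divided by the square root of the F statistic of its test. Printed CPM are TMM-scaled. Exon lengths came from the GENCODE M21 annotation for 14015 genes (12797 symbols matched directly, 1218 through a synonym, 194 unmatched), promoters from RefSeq on GRCm38.p6 for 39 of 53 members. The common biological coefficient of variation was 0.15. Replicates differed by more than counting noise. DESeq2 1.42.0, other scalings, filters, covariates and left-out libraries were alternatives.

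By the titles' replicate numbers, deviations of same-numbered WT and Gα13-deficient libraries from their group means correlated weakly, at 0.1793, 0.1288 and 0.1108. Different-numbered libraries of these 2 groups correlated at -0.1201 to -0.0207. Elsewhere, different-numbered libraries correlated more strongly: CD97-deficient replicate 1 with WT replicate 2 at 0.2159, and CD97-deficient replicate 2 with WT replicate 3 at 0.1978. Correlations of this size therefore do not settle whether libraries were paired. The labels name no shared source, and same-numbered WT and Gα13-deficient libraries also share a sex pattern. The WT columns of the table are numbered 2 to 4, where the titles number the same libraries 1 to 3; file names tie them. By column number the 2 shared numbers correlated at -0.1201 and -0.0645, so any pairing would rest on the titles. Replicate numbers in the text are those of the titles.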

Additional observations from a re-analysis of the deposited data

How the results depend on the processing

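Over the 3 comparisons, 488 fold changes of the 8 called members were recomputed. Of these, 414 kept their direction and side of the threshold, 53 lost the call, 3 gained one and 18 changed sign. The sign changes were all in the direct comparison of the knockouts, where the values are near 0. The 488 include results that were not called as reported, such as all those between the knockouts. Those had no call to lose, so the 414 are not a count of calls kept. Arhgap11a was called under every setting in both comparisons with WT. For CD97-deficient against WT, all genes called were 1027 (583 higher, 444 lower), 1105 with library totals (774 higher, 331 lower), 647 with the macrophage level in the model, 222 with the sex pattern in the model, 233 in the female-pattern libraries alone (added after the data were seen, with 1 WT library assumed to vary like the others) and 364 to 1271 with 1 library left out, lowest without CD97-deficient replicate 3 and highest without WT replicate 2. Members called there were 4 (7.69%, beside 8.53% of all genes), and 7 by DESeq2 (14.6%, beside 11.0%). With sex in the model 1 member was called (1.92%, beside 1.84%). With 1 library left out 3 to 5 members were called, beside 364 to 1271 of all genes. For Gα13-deficient against WT, all genes called were 1322, 255 in female-pattern and 611 in male-pattern libraries (both added after the data were seen) and 693 to 1459 with 1 library left out, lowest without Gα13-deficient replicate 2. Members called were 8 (15.4%, beside 11.0% of all genes), and 3 in male-pattern libraries (6.0%, beside 5.12%). With 1 library left out 4 to 8 members were called, beside 693 to 1459 of all genes. The count was 4 without Gα13-deficient replicate 1, Gα13-deficient replicate 2 or WT replicate 3, where 915, 693 and 990 of all genes were called.

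Between the knockouts 6 genes were called, 55 by DESeq2, 14 with the macrophage level, 11 with no filter, 53 from the 2 groups alone, 24 in female-pattern libraries and 4 to 25 with 1 library left out. DESeq2 called 1 member, Arhgap18. In that comparison Arhgap11a (-0.01 as reported) gave 0.018 with the macrophage level, 0.0073 with no filter, 0.083 in female-pattern libraries, 0.11 with sex in the model and -0.050 to 0.078 with 1 library left out. Arhgap21 gave 0.055 in female-pattern libraries, 0.075 with sex in the model and -0.10 to 0.0011 with 1 library left out. Arhgdib gave -0.0068 with library totals, -0.0017 in the 2 groups alone and -0.033 to 0.048 with 1 library left out, Arhgap19 -0.0064 to 0.19 and Arhgap33 -0.099 to 0.21.

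The replicate number as a block moved the genes called between the knockouts to 14 over all 9 libraries and 73 in the 2 groups alone, with 1 member called in the latter (Dock5), and Arhgdib at -0.0014. For CD97-deficient against WT the block over all 9 libraries called Dock5, and the block in the 2 groups called 5 members, with Dock5 and Dock11 and without Arhgdib (edgeR adjusted p = 0.0748). Same-numbered CD97-deficient and WT libraries correlated at 0.0572, -0.3009 and 0.0594, and the knockouts at 0.0112, -0.0382 and -0.0731. These correlations do not settle whether the numbers pair libraries. For Gα13-deficient against WT the block changed no member call other than those of Arhgdib, lost in the 2 groups alone, and Arhgap19, lost over all 9 libraries (edgeR adjusted p = 0.0557) and kept in the 2 groups alone (edgeR adjusted p = 0.00368). The causes of these changes were not tested. Members under 1 CPM per kb rest on few counts, and smaller differences in them were not detectable at this depth.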

Other observations

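Some members passed the threshold only under an alternative setting. Arhgap31, a GAP for Rac and Cdc42, had 12.0, 30.7 and 13.2 CPM in WT, 16.2, 10.8 and 16.2 CPM in the CD97-deficient and 11.2, 12.8 and 7.78 CPM in the Gα13-deficient libraries, with WT replicate 2 far above the rest. It was called lower in Gα13-deficient libraries once the level of macrophage markers was a model term (log2 fold change -0.88, edgeR adjusted p = 0.0118). In the female-pattern libraries alone, where WT replicate 2 is the 1 WT library, the CD97-deficient log2 fold change of Arhgap31 was -1.08. Arhgap15, another Rac GAP, had 127, 125 and 124 CPM in WT and 93.7, 83.7 and 132 CPM in the Gα13-deficient libraries, and was called lower without Gα13-deficient replicate 3 (-0.49, edgeR adjusted p = 0.0195). Arhgef18, a RhoA exchange factor, had 64.5, 55.0 and 44.6 CPM in WT and 73.1, 61.7 and 74.9 CPM in the Gα13-deficient libraries, and was called higher without WT replicate 1 (0.49, edgeR adjusted p = 0.0471). These genes were chosen after their values were seen.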
